A study of Caenorhabditis elegans with 9 samples.

Results

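Chromosome III of C. elegans carries all 6 Hox genes named here, and the regions bound by 1 of their products, EGL-5, were mapped along it. The members are all peaks on chromosome III in the authors' combined list, 596 of 4688 peaks on the 6 chromosomes. They were chosen by chromosome alone. The replicate 1 list held 274 peaks on the same chromosome (of 2420) and the replicate 2 list 205 (of 1345). A peak is an interval in which ChIP reads exceeded the input control according to the caller PeakSeq, and whether EGL-5 binds each one was not tested.

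The data come from chromatin immunoprecipitation and sequencing (ChIP-seq) in hermaphrodites at the third larval stage (L3) of strain OP54, grown at 20 °C. Its genotype combines the allele unc-119(ed3) on III with the transgene wgIs54, which carries unc-119(+) and the fusion egl-5::TY1::EGFP::3xFLAG. An antibody against GFP collected the tagged protein. There were 4 ChIP libraries, 2 in each of 2 replicates, and 5 input libraries of total DNA, all titled replicate 2. ChIP and input came from the same strain, and no library of untagged worms is among those analysed here. The transgene was introduced by bombardment, and the labels state that the fusion protein follows the correct egl-5 pattern. It adds egl-5 sequence beside the worm's own copy on chromosome III, and the unc-119 allele that it rescues also lies on III. The sources used here do not give its flanking DNA, its copy number or its place of insertion. Reads from transgene and chromosome cannot be told apart in these lists. Each library pools the cells of whole animals, so the tissue in which a region was bound is not known.

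Hox proteins are homeodomain transcription factors that give cells their identity along the head-to-tail axis. EGL-5 belongs to the posterior, Abdominal-B class and patterns cells of the tail, including neurons and the male tail. Of the other Hox genes, ceh-13 is the labial-class gene and acts in the anterior, lin-39 acts in the mid-body, where it is needed for the vulva, mab-5 acts in the posterior body, and php-3 and nob-1 are further posterior genes of the Abdominal-B class. The gene table used here is on the later build WBcel235, so it served for names and order only. It lists all 6 genes on chromosome III. In its order lin-39 and ceh-13 are direct neighbours, 37 protein-coding genes lie between ceh-13 and mab-5, and only cyk-7 lies between mab-5 and egl-5. The pair php-3 and nob-1 follows after 894 further protein-coding genes. The peaks are on build WS190. No annotation of that build was used, so no peak below is assigned to a gene.

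The peaks with by far the lowest q values of chromosome III sat together in 19.8 kb, from 7804997 to 7824800. A q value is a p-value adjusted for the number of regions tested. It depends on read depth, which is unknown here, and ranks peaks only within its own list. In the combined list this stretch held 5 peaks, of which 4 held ranks 1 to 4 among all 4688, with q from 1.62e-196 to 4.71e-75. The best peak of chromosome III outside it, from 11448188 to 11448720, had q = 3.11e-29 and was ranked 12th in the whole list. Whether the stretch overlaps DNA carried by the transgene was not tested, and the part of these q values that comes from transgene reads cannot be told apart from that of the chromosome.

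Both replicates placed their lowest q in the same stretch but outlined it differently. Combined peaks covered 80.2% of its length, replicate 1 peaks 75.7% and replicate 2 peaks 46.4%. Replicate 1 drew 6 peaks of 587 to 4392 bp, and replicate 2 drew 11 peaks of 356 to 1864 bp. The narrower outlines of replicate 2 lay inside the broad intervals of the combined list. Under the first-ranked combined peak (7812057 to 7815301, 3245 bp wide) lay 1 replicate 1 peak, from 7810886 to 7815277 with q = 2.39e-121. In replicate 2 the same interval held a peak from 7812134 to 7812985 with q = 2.72e-109, only 852 bp wide, and a second from 7814060 to 7814595 with q = 3.75e-12. In replicate 2 the lowest q therefore fell in the left part of this interval, while the single replicate 1 peak covered all but its last bases.

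The widest combined peak of chromosome III, from 7815540 to 7820619 (5080 bp), had its lowest replicate 2 value on the other side. Replicate 2 divided it into 3 peaks, and the one of lowest q was the rightmost, from 7819665 to 7820339 with q = 5.14e-61. Its neighbour from 7818126 to 7819457 had q = 1.38e-16, and the leftmost, from 7817426 to 7817786, had q = 0.00586. Replicate 1 called a weak peak at the left (7815575 to 7816319, q = 0.00820) and a broad one for the remainder (7816529 to 7820579, q = 1.13e-92). The rightmost replicate 2 peak lies inside that broad one. The combined peak of rank 3 (7822609 to 7824800) contained a replicate 2 peak from 7823771 to 7824781 with q = 4.24e-58 and a replicate 1 peak from 7823151 to 7824772 with q = 5.90e-65, both ending within 28 bp of its right edge. In the peak of rank 4 (7804997 to 7809456), the best of 3 replicate 2 peaks had q = 4.88e-20 and rank 6 in its list. It lay from 7806320 to 7807326. Replicate 1 gave q = 1.92e-31 there, with rank 4 in its list.

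**Figure D1:**
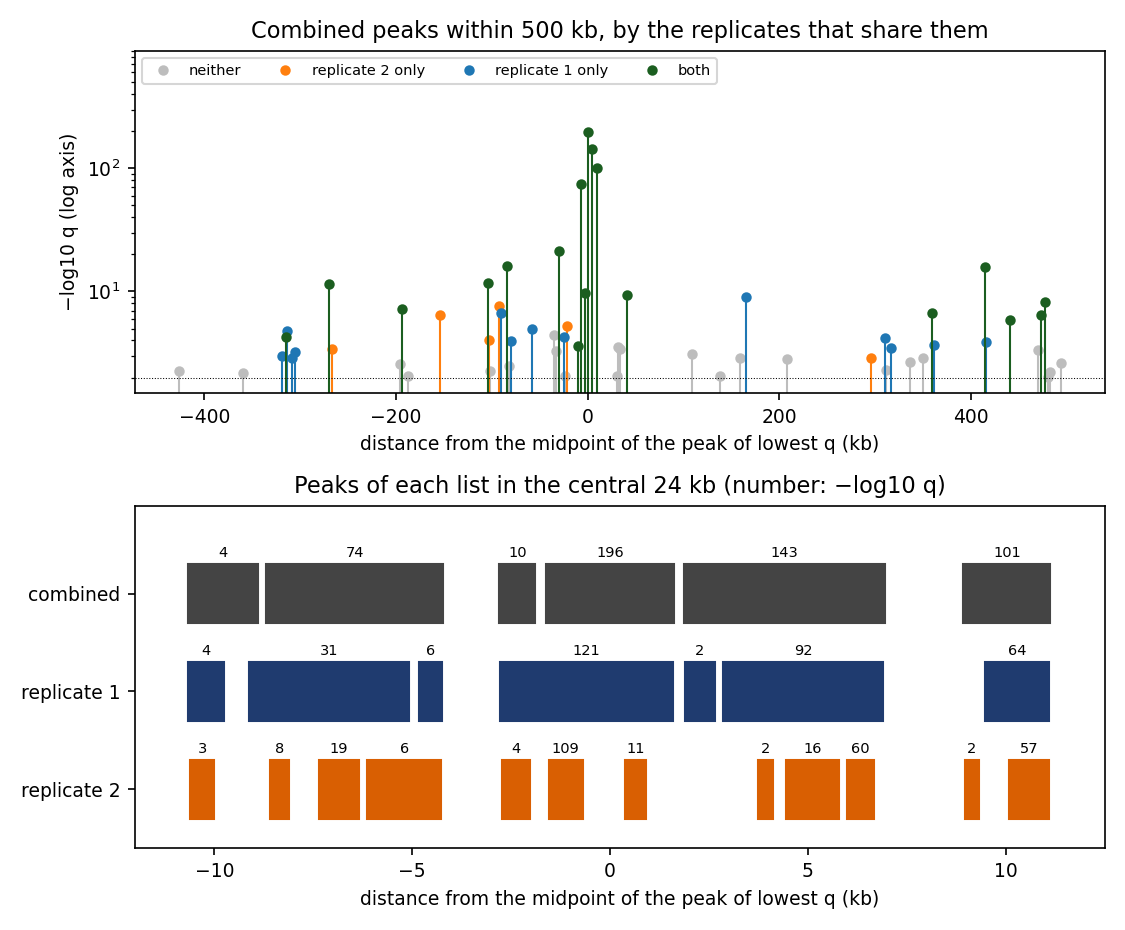
Combined peaks within 500 kb of the peak of lowest q on chromosome III (top, −log10 q on a log axis, coloured by the replicate lists that share them, dotted line at 2) and intervals called in each list over 24 kb (bottom, with −log10 q rounded to whole numbers). The 4 tallest stems stand close together around 0 kb, and replicate 2 divides the same stretch into more and narrower boxes than replicate 1.

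The wider stretch from 7.4 to 8.0 Mb was set apart because earlier results of these data had pointed to it, so it is described without a test. It held 41 combined peaks, or 68.3 per Mb (95% Poisson interval 49.0 to 92.7), against 42.4 per Mb (38.9 to 46.1) over the rest of the chromosome. Leaving out the 5 peaks of the 19.8 kb stretch and its length, 62.0 per Mb remained (43.5 to 85.9, 36 peaks). With all peaks the interval lay above that of the rest, and without the 5 peaks the intervals overlap. The rest includes the sparser ends of the chromosome. The central part of III (4590746 to 9156228), which contains the wider stretch, held 56.7 per Mb (50.0 to 64.1). This value lies inside both intervals of the wider stretch. Peaks covered 5.13% of this stretch and 2.00% of the rest, but 2.57% of it without the 5 peaks. Against the other 0.6 Mb tiles on the same grid, its peak number tied for rank 3 of 22, behind 44 peaks in each of the tiles from 3.8 to 4.4 Mb and from 8.6 to 9.2 Mb, while its covered length of 30.8 kb ranked first.

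Within it, 13 of 41 peaks were found in both replicates, meaning that they shared at least 1 bp with a peak of each replicate list (31.7%, 95% Wilson interval 19.6 to 47.0). Of the other 555 peaks of chromosome III, 113 were (20.4%, 17.2 to 23.9), and over all chromosomes 18.9% of combined peaks were. The intervals overlap. When a shared peak instead needed midpoints within 200 bp, the order turned, with 6 of 41 (14.6%, 6.88 to 28.4) against 100 of 555 (18.0%, 15.0 to 21.4). By the 1 bp rule and without the 5 peaks of the 19.8 kb stretch the share was 22.2% (11.7 to 38.1), close to that of the rest. Replicate 1 had 23 peaks in the 0.6 Mb (38.3 per Mb, against 19.2 elsewhere on III) and replicate 2 had 24 (40.0 against 13.8). Outside the 19.8 kb stretch there were 17 peaks (29.3 per Mb) and 13 peaks (22.4 per Mb), above the values for the rest of III in both lists. No intervals were computed for these small counts, so whether they exceed the rest was not tested. The rest also includes the sparser ends of the chromosome. The central part, which contains the 0.6 Mb, held 109 replicate 1 peaks and 96 replicate 2 peaks in 4.57 Mb.

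The peaks were not spread evenly over these 0.6 Mb. The 100 kb from 7.7 to 7.8 Mb held 15 peaks and those from 7.8 to 7.9 Mb held 10, of which 3 and 7 were found in both replicates. Each of the other 100 kb steps held 4. Within the 0.6 Mb, the lowest q outside the 19.8 kb belonged to the peak from 7784051 to 7784508, 458 bp wide with q = 5.04e-22 (6.20e-15 in replicate 1, where it was ranked 14th, and 2.01e-06 in replicate 2, where it was ranked 142nd). It was the only peak found in both replicates in a run of 6 that reached from 7778553 to 7792291, the run of most peaks on chromosome III in which each midpoint lay within 5000 bp of the next. The broad peak from 7728393 to 7730365 (1973 bp, q = 8.09e-17) came next, with q = 9.12e-10 in replicate 1 and 9.64e-07 in replicate 2.

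Another 5 peaks found in both replicates were narrow and lay to either side. That from 7709900 to 7710472 had q = 1.51e-12, with replicate values of 2.38e-07 and 1.20e-04. That from 7544139 to 7544485 had q = 2.63e-12, and the replicates gave similar values there, 2.59e-06 and 7.32e-06. To the right of the 19.8 kb only 1 such peak was found up to 8.0 Mb, from 7854422 to 7854819 with q = 4.92e-10. The peaks from 7620163 to 7620562 (q = 7.25e-08) and from 7498298 to 7498686 (q = 5.42e-05) were weaker, and the latter had replicate q of 0.00336 (rank 1597 of 2420) and 0.00910 (rank 1268 of 1345). The remaining 2 of the 13 flank or divide the strong stretch. The peak from 7803016 to 7804778 had q = 2.66e-04, and that from 7810882 to 7811793 had q = 2.35e-10. In replicate 1 the latter is part of the broad peak from 7810886 to 7815277 and in replicate 2 a separate peak with q = 1.22e-04. At the limits of the 0.6 Mb, the first peak inside (7453800 to 7453971, q = 0.00681) and the last outside on that side (7387351 to 7387669, q = 0.00527) were both weak and found in neither replicate. On the other side the last peak inside (7978079 to 7979019) had q = 1.16e-09 and was found in replicate 1 only, and the first outside (8022127 to 8022329) had q = 0.00145.

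Away from this stretch, the strongest peaks of chromosome III were scattered over the chromosome. The peak from 11448188 to 11448720 was called with edges within 23 bp of these in both replicates, with q = 5.43e-15 in replicate 1 and 8.03e-13 in replicate 2 (ranks 12 and 16). The peak from 8416901 to 8417963 (q = 3.80e-27) had nearly equal values in the replicates, 1.31e-12 and 1.01e-12. So did that from 10742256 to 10742743 (q = 3.26e-24), with 5.81e-12 and 1.39e-12. These 3 sites had ranks of 12 to 25 in both replicates. The remaining peaks among the 10 of lowest q were less even. The peak from 459786 to 460265, near the left end, had q = 7.98e-12 in replicate 1 but 2.39e-05 in replicate 2 (ranks 27 and 235). The peak from 12612243 to 12613691 leaned the other way, with 1.61e-08 and 1.07e-10 (ranks 89 and 28). All 10 peaks of lowest q on chromosome III were found in both replicates. A combined q may rest on the same reads as the replicate calls, so this is no independent support.

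In the whole list, chromosome III held 4 of the first 10 peaks by q (95% Wilson interval 16.8% to 68.7%), all from the 19.8 kb stretch. It held 10 of the first 50 (20.0%, 11.2 to 33.0) and 18 of the first 100 (18.0%, 11.7 to 26.7). Among the first 500 it held 60 (95% Wilson interval 9.44% to 15.1%) and among the first 1000 it held 121 (12.1%, 10.2 to 14.3). It held 12.7% of all combined peaks. In the longer lists its share was therefore close to its share of all peaks, and the intervals for the first 50 and 100 include that share.

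Along the chromosome, peaks were dense in the middle and sparse at both ends. From the first base of any peak to the last, III spanned 13.7 Mb, and the combined list had 43.5 peaks per Mb on it (40.1 to 47.2). Each 1 Mb bin from 3 to 10 Mb held 48 to 62 peaks, and every bin outside that stretch held 20 to 40. These 7 bins together held 392 of 596 peaks (65.8%). The sparsest full bin, from 2 to 3 Mb, had 20 peaks (95% Poisson interval 12.2 to 30.9), and the bin next to it, from 3 to 4 Mb, had 62 (47.5 to 79.5), which was the highest number together with the bin from 8 to 9 Mb. The intervals of the 2 neighbouring bins do not overlap, but the bins were picked for their extreme counts. On the right the fall between 9 and 11 Mb was from 54 (40.6 to 70.5) to 33 (22.7 to 46.3), where they do overlap.

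The step at 3 Mb was present in both replicate lists but was larger in replicate 1. Replicate 1 rose from 9 to 34 peaks, its highest bin, and replicate 2 from 6 to 14. No intervals were computed for these replicate counts, and those of replicate 2 are small. The highest bins of replicate 2 were those from 7 to 8 Mb with 26 peaks and from 8 to 9 Mb with 24. In each of these replicate 1 had 28. The bin from 7 to 8 Mb contains the 19.8 kb stretch, which replicate 2 divided into 11 peaks and replicate 1 into 6. Its count in replicate 2 therefore depends on how that stretch was divided. Replicate 1 had more peaks than replicate 2 in 13 of 14 bins. The exception was the bin from 4 to 5 Mb with 19 in each. The share of supported peaks also varied between bins. In the bin from 3 to 4 Mb, 10 of 62 peaks (16.1%) were found in both replicates, in that from 6 to 7 Mb 7 of 57 (12.3%), in that from 8 to 9 Mb 16 of 62 (25.8%) and in that from 12 to 13 Mb 9 of 33 (27.3%). With so few peaks a bin these shares are imprecise.

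**Figure D2:**
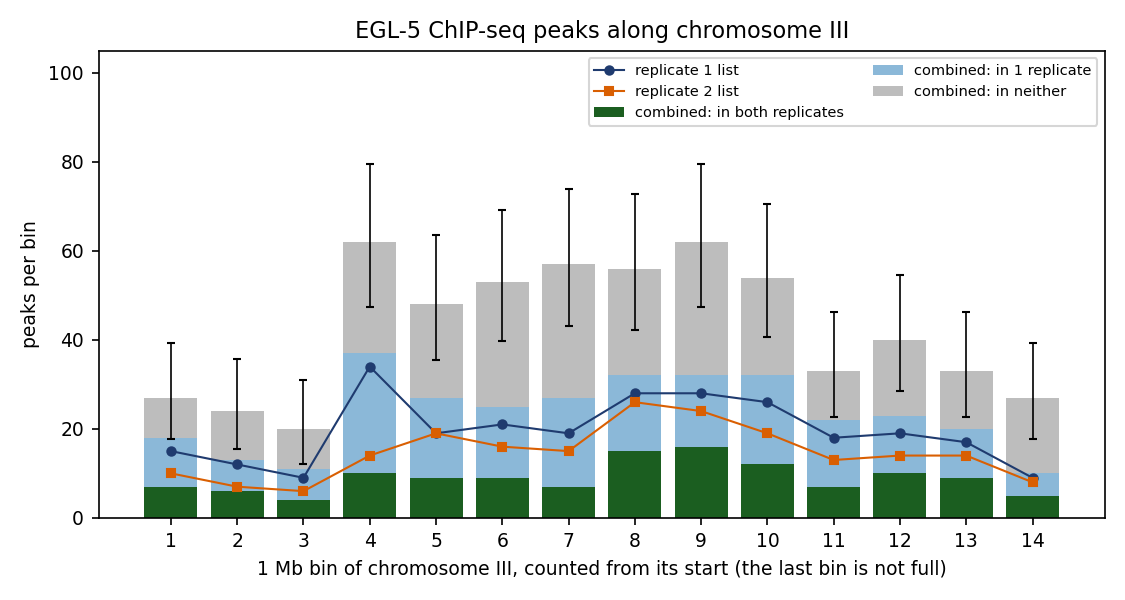
Peaks of chromosome III in 1 Mb bins numbered from its start, with bars for combined peaks divided by the replicate lists that share them (95% Poisson intervals of the total) and lines for each replicate list. Bins 4 to 10 hold 48 to 62 combined peaks and the others 20 to 40, and replicate 1 exceeds replicate 2 most in bin 4, with 34 against 14.

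C. elegans autosomes have gene-rich centres and repeat-rich arms that recombine more. When the span was divided into 3 equal parts, the central part of chromosome III (4590746 to 9156228) held 259 of 596 peaks, or 43.5% (95% Wilson interval 39.5 to 47.5), at 56.7 per Mb. The left part held 164 peaks (35.9 per Mb, 30.6 to 41.9) and the right part 173 (37.9 per Mb, 32.5 to 44.0). The central density lay above the intervals of both outer parts, and the outer parts did not differ beyond theirs. The parts were set by length and are not the arms. The left part includes the dense bin from 3 to 4 Mb (62 peaks) and the right part most of that from 9 to 10 Mb (54 peaks). Over all 5 autosomes 43.5% of combined peaks were central. Chromosome III did not differ detectably from the other 4 autosomes (1383 of 3181, 43.5%), with an odds ratio of 0.999 (95% interval 0.834 to 1.20, two-sided Fisher's exact test, adjusted p = 1.00 over 3 tests). The window from 7.4 to 8.0 Mb lies in the central part. Leaving out its peaks, on III alone, can only lower the central share of III, which became 39.3%. The odds ratio was then 0.841 and the test was not passed (Fisher's exact test, adjusted p = 0.112). The direction of this change was set by the choice of window.

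In q, width and support the central peaks were close to those of the outer parts. Their median −log10 q was 3.22, against 3.34 in the left and 3.50 in the right part, and their median width 356 bp against 398 and 392 bp. The share found in both replicates was 20.8% (16.3 to 26.2) in the centre, 20.1% (14.7 to 26.9) on the left and 22.5% (17.0 to 29.3) on the right. Peaks found in neither replicate made up 48.3% of the centre (42.2 to 54.3), 41.5% of the left (34.2 to 49.1) and 42.8% of the right part (35.6 to 50.2). All these intervals overlap.

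On chromosome III as a whole, 126 peaks (21.1%, 18.1 to 24.6) had overlapping calls in both replicates, 138 (23.2%) in replicate 1 only, 65 (10.9%) in replicate 2 only and 267 (44.8%, 40.9 to 48.8) in neither. Over all chromosomes, 18.9% of combined peaks were in both and 41.4% in neither. Against the other 5 chromosomes together, the odds ratio for support by both replicates was 1.18 (0.946 to 1.46) and that for support by neither was 1.17 (0.983 to 1.40). Neither passed the test (two-sided Fisher's exact tests, adjusted p = 0.195 for both, over 3 tests). These tests count peaks, which are clustered and are not independent worms, so their intervals may be too narrow.

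The odds ratio for support by both replicates depended on chromosome I, where replicate 1 had 635 peaks and replicate 2 only 133. Chromosome III had 0.748 replicate 2 peaks for each replicate 1 peak, the highest of the 6 chromosomes, while this ratio was 0.598 to 0.725 on II, IV, V and X and 0.209 on I. With chromosome I left out, 21.3% of peaks on the other chromosomes were in both replicates, and the odds ratio for III was 0.992 (0.793 to 1.23, adjusted p = 1.00 by Fisher's exact test). That for support by neither was 1.19 (0.996 to 1.43, adjusted p = 0.151 by Fisher's exact test), close to its value with I. Taken singly, the replicates gave opposite directions. Replicate 2 supported 32.0% of combined peaks on III and 27.0% elsewhere (odds ratio 1.28, adjusted p = 0.0322 by Fisher's exact test), and replicate 1 supported 44.3% against 50.7% (0.774, adjusted p = 0.0114 by Fisher's exact test). Without chromosome I both differences failed the test, at 32.0% against 32.3% and 44.3% against 48.5% (odds ratios 0.987 and 0.845, adjusted p = 1.00 and 0.112 by Fisher's exact tests).

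**Figure D3:**
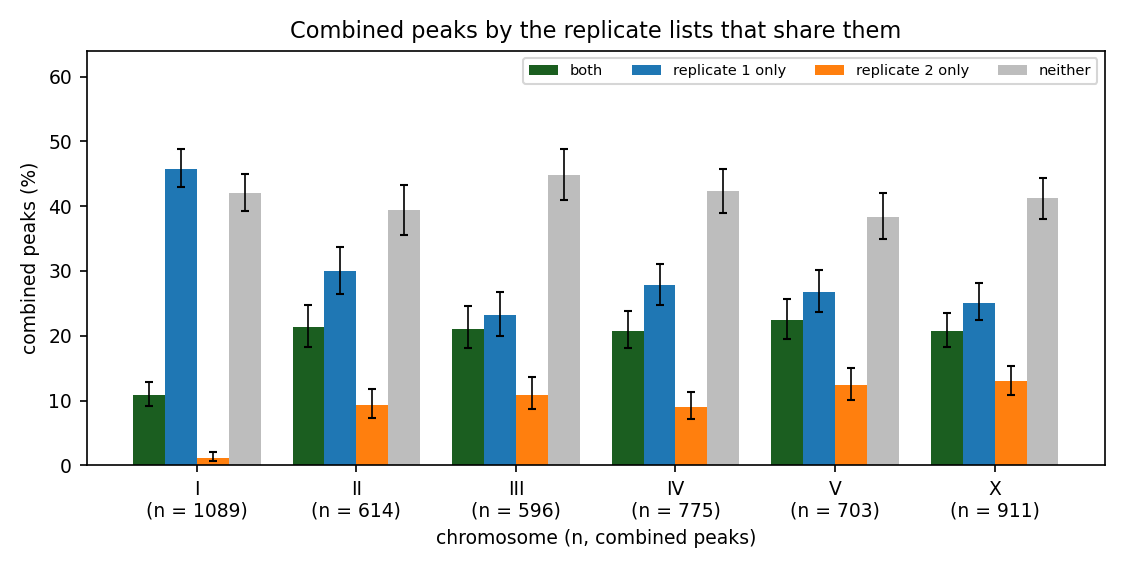
Share of combined peaks on each chromosome that overlap peaks of both replicate lists, of a single list or of neither, in percent, with 95% Wilson intervals. The intervals of chromosome III, with 21.1% in both and 44.8% in neither, overlap those of II, IV, V and X, and chromosome I has 10.9% in both and 45.8% in replicate 1 only, outside the intervals of the others.

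Peaks of lower q were more often found in the replicates, on chromosome III as on the other 5 chromosomes. The combined and replicate lists may rest on the same reads, so these shares are a description. Among the 245 peaks of III with −log10 q between 2 and 3, 1 (0.408%) was found in both replicates and 205 (83.7%) in neither. On the other 5 chromosomes these shares were 0.125% and 79.4%. From 3 to 5, 16 of 200 (8.00%) were in both, against 6.89% on the other 5 chromosomes. From 5 to 10, 76 of 117 (65.0%, 56.0 to 73.0) were in both, against 53.5% (50.0 to 56.8) on the other 5 chromosomes but 67.8% (63.9 to 71.5) on those without I. Above 10, 33 of 34 (97.1%) were, against 90.8% on the other 5 chromosomes and 98.0% on those without I. Peaks found in neither replicate could still have fairly low q. The lowest was 4.58e-06, for the peak from 11202839 to 11203398 (560 bp). The next 4 were those from 7141325 to 7141335 (only 11 bp wide, q = 3.03e-05), 10358708 to 10359000 (q = 3.09e-05), 7778553 to 7778830 (q = 3.56e-05) and 9353757 to 9354054 (q = 4.52e-05).

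Most replicate calls on III entered the combined list. In replicate 1, 267 of 274 calls (97.4%, 94.8 to 98.8) shared at least 1 bp with it, and in replicate 2, 198 of 205 (96.6%, 93.1 to 98.3). The 7 missing from each had q of 7.07e-04 to 0.00956 in replicate 1 and of 0.00477 to 0.00979 in replicate 2. Between the replicates, 126 replicate 1 peaks (46.0%, 40.2 to 51.9) and 132 replicate 2 peaks (64.4%, 57.6 to 70.6) had a partner. The 126 pairs, each a replicate 1 peak with its best partner, had midpoints a median of 39.5 bp apart, and 75% were within 79.5 bp. The replicate 1 peak was the wider in 93 of 126 pairs and had the lower q in 69. Because q depends on the unknown depth of each list, the latter count is a description only.

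The −log10 q values of the 126 pairs had a rank correlation (Spearman's rho) of 0.517 and a Pearson's r of 0.979. Without the 13 pairs from 7.4 to 8.0 Mb, rho was 0.433 and r 0.660 over 113 pairs. The high r thus rested on the strong stretch. Pairs share a caller and possibly inputs, and only peaks called in both lists enter, so these values are a description.

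Peaks on III were mostly under 1000 bp wide. The median was 366 bp, with 50% of peaks between 279 and 548 bp. Median widths on the other chromosomes were 370 to 410 bp. Width went with support: peaks found in both replicates had a median of 514 bp, those in replicate 1 only 378 bp, in replicate 2 only 403 bp and in neither 306 bp. Of the 48 peaks of 1000 bp or more, 25 (52.1%) were in both replicates and 9 in neither. Of the 22 peaks under 50 bp, none was in both, 19 were in neither, and the shortest was 3 bp. A wide interval meets the rule of 1 shared bp more easily than a short one, and support also went with q. How much of the link between width and support follows from the rule or from q was not tested. Across the 596 peaks width and −log10 q had a Spearman's rho of 0.437 (0.410 over the 555 outside 7.4 to 8.0 Mb), a description only.

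Wide peaks did not always have low q. Outside the window the widest, from 9700950 to 9704752, spanned 3803 bp with q = 0.00351 and was found in neither replicate. The next but one, from 12614024 to 12616354 (2331 bp), had q = 0.00998, close to the limit of the list, although the peak 332 bp to its left was among the 10 of lowest q. Between these in width was the peak from 13060811 to 13063227 (2417 bp, q = 6.21e-13). It was found in both replicates, but with modest values of 1.23e-04 and 0.00145.

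**Figure D4:**
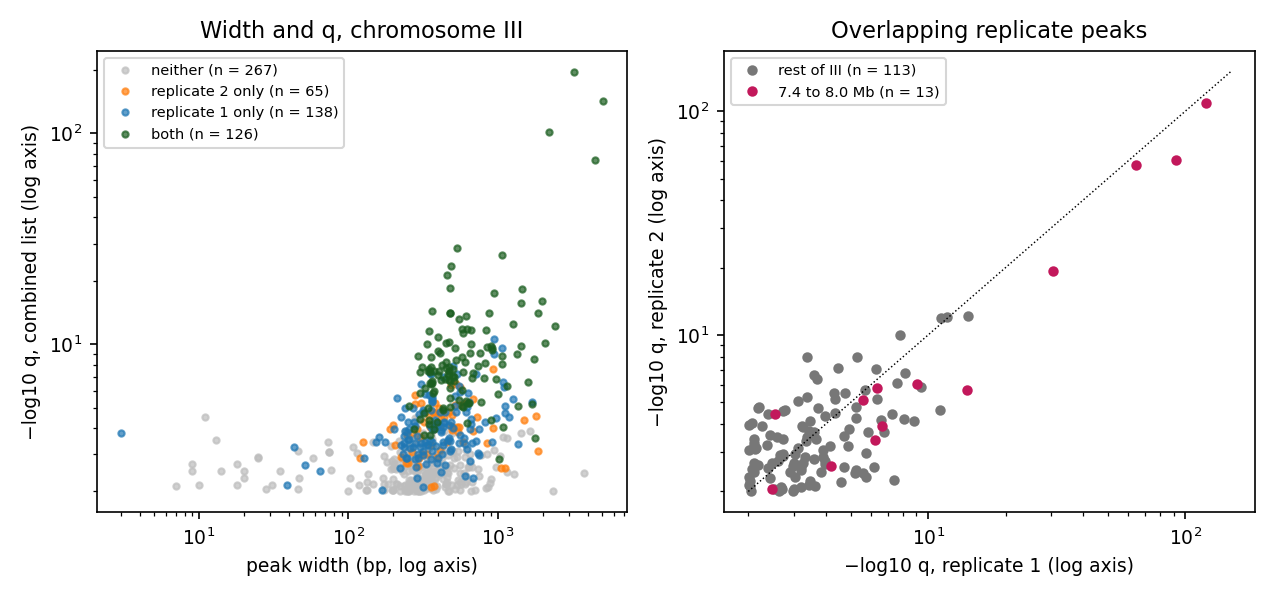
Left, width in bp and −log10 q of the 596 combined peaks of chromosome III, coloured by the replicate lists that share them, and right, −log10 q of the 126 overlapping replicate pairs with the line of equal values dotted and pairs from 7.4 to 8.0 Mb in red, all on log axes. Peaks found in neither replicate lie low on the left plot at all widths, and the 4 strongest pairs on the right plot are all from 7.4 to 8.0 Mb.

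Midpoints of neighbours lay a median of 12288 bp apart, with 50% between 4070 and 30693 bp. A midpoint within 5000 bp was found for 292 of 596 peaks (49.0%, 45.0 to 53.0), against 55.8% over all chromosomes and 52.8% to 65.1% on each of the other 5. This was the lowest share of the 6, although II and V had fewer peaks per Mb, but its interval overlaps those of II, IV, V and X, and the difference was not tested. From 7.4 to 8.0 Mb the share was 75.6% (31 of 41), against 47.0% over the rest. Of the 36 peaks there outside the strong stretch, 27 had such a neighbour, with neighbours inside the stretch still counted. The share was 55.6% in the central part, 46.3% in the left and 41.6% in the right.

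Chained by this distance, 304 peaks stood alone, 154 formed pairs and 41 lay in 8 runs of 5 or 6 peaks. A run of 5 from 7803016 to 7820619 took in most of the strong stretch, and all 5 of its peaks were in both replicates. In the other 7 runs 1 to 3 peaks were. The remaining runs were from 1920763 to 1927003, 3584666 to 3594368, 6136627 to 6141849, 8283377 to 8296515, 11201020 to 11210487 and 13060811 to 13071902, with lowest q between 2.47e-12 and 1.48e-08 except for the last (6.21e-13). When peaks less than 1000 bp apart were joined, the 596 became 530 regions, of which 54 held more than 1 peak. At the other extreme, 18 distances exceeded 100 kb, and the longest, 202131 bp, separated the peaks from 2171772 to 2172517 and from 2374178 to 2374373 in the sparsest bin.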

How the data were processed

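Per the file headers, positions are on WormBase WS190, and the source column of the 3 deposited peak lists names PeakSeq. Each peak's value is a q-value, as the authors deposited it. No list holds a q above 0.01. The sources used here do not give the aligner, the caller version, the inputs used or how libraries were joined, and no list has read counts, so depth is unknown. All peaks were used, in SciPy 1.17.1, pandas 2.3.3, NumPy 2.4.6 and matplotlib 3.10.9 under Python 3.11.15. Peaks were called shared at 1 bp of overlap. Peaks were placed in bins and in 3 equal parts of the chromosome by their midpoints. Fisher's exact tests (two-sided) were adjusted by Benjamini-Hochberg over 3 tests, after a check on simulated lists. The p-value of an alternative setting was adjusted with the main p-values of the other 2 tests, and not over all alternatives. Intervals cover the counting of peaks only. The members, the window and the tests were chosen with earlier results of these data known. Peaks were named by rule: the 10 of lowest q, those from 7.4 to 8.0 Mb in both replicates, the 3 widest outside it, the 5 of lowest q in neither, and extremes of density and spacing. The labels do not say whether worms of the 2 replicates came from separate cultures, so the spread between them may be technical. No sequence is shown, because no genome of WS190 was used.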

Additional observations from a re-analysis of the deposited data

How the results depend on the processing

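None of the 3 tests of chromosome III passed, and of their 22 alternatives 2 did, both given above. These were support by replicate 2 alone and by replicate 1 alone, with odds ratios of 1.28 and 0.774. Each alternative was adjusted only with the main p-values of the other 2 tests. These 2 passes therefore carry no correction for the 22 alternatives. Odds ratios crossed 1 without passing for support by neither in the 50% of each list with lowest q (0.976), for support by both with chromosome I left out (0.992, and 0.987 and 0.845 for replicate 2 and replicate 1 alone, chosen after seeing the data), and for the central share with the central 50% of the span (1.02). With single replicate lists the central odds ratio ran from 0.867 to 1.09. Peaks per Mb fell to 38.7 when peaks less than 1000 bp apart were joined and were 15.0 to 20.0 in single replicate lists, which hold fewer peaks. The share of peaks from 7.4 to 8.0 Mb in both replicates was 14.6% with midpoints within 200 bp, in place of 31.7%. It lay below the 18.0% of the rest of III by that rule. Counting overlap with replicate 2, whether or not replicate 1 overlapped, 43.9% of these peaks were supported, against 32.0% on all of III. For replicate 1 the shares were 53.7% and 44.3%. The share with a neighbour was 25.8% within 2000 bp, 67.1% within 10000 bp and 31.2% to 31.4% in single replicate lists. Single-replicate values of the last 2 were added after seeing the data, as were values without the strong stretch. No paired analysis was possible because the lists hold no values per library. Unknown depth limits every comparison between lists.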
